A study of Mus musculus with 10 samples.

Results

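The cell cycle and DNA replication genes described here are 43 genes named in a list: 15 that act in mitosis, 14 that act in DNA replication and nucleotide supply, 11 that act at the passage from G1 into S phase, and 3 inhibitors of cyclin-dependent kinases. Of the 43 genes, 36 were tested, having a probe detected (detection p below 0.05) on 5 or more of the 10 arrays, among 14859 features in all. The RNA came from monocytes of the mouse spleen, which the sort took as CD11b+ cells without lineage markers, with medium F4/80, little or medium CD11c and little MHC class II. All mice were C57BL/6 and 3 months old. TCL1-AT denotes 5 samples of mice that had received murine chronic lymphocytic leukaemia (CLL) cells by transplantation 6 weeks earlier. Such cells arise in Eµ-TCL1 mice, in which a B cell specific promoter and enhancer drive a TCL1 transgene, so the transgene belongs to the transplanted leukaemia and not to the host's own monocytes. The 5 WT samples had no intervention and are labelled as pools. The labels state neither the number of mice in a pool nor whether each TCL1-AT sample was 1 mouse, so the p-values measure the spread between these samples, which may be technical.

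Dividing cells pass through the cycle by making and destroying cyclins, the partners of the cyclin-dependent kinases. D-type cyclins with Cdk4 and Cdk6 inactivate the retinoblastoma protein and release E2F factors, which switch on genes for DNA synthesis, and a later wave of transcription, driven by B-Myb and FoxM1 on the MuvB complex, switches on the mitotic genes. Monocytes in blood and spleen mostly do not divide, whereas their precursors in the bone marrow, and in the spleen when blood formation spreads there, do.

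The mitotic genes were lower in the sorted monocyte samples of leukaemic mice, while most replication genes were not called and cyclins D1 and D2 were higher. Raw signal and markers of other cells also differed between the groups, as described below. Of 11 tested mitosis genes, 11 were called lower in TCL1-AT and 0 higher at a limma adjusted p under 0.05, with a median log2 difference (TCL1-AT minus WT) of -0.68 and a range from -1.03 to -0.57. Over all 14859 features, 15.4% were called lower, 12.3% were called higher and the median difference was 0.02. For 9 of the 11 mitosis genes the values of the groups did not overlap, against 20.5% of all features. Of 13 tested replication genes, 3 were called lower, 2 higher and 8 were not called, with a median of -0.09, so that their called shares of 23.1% and 15.4% lay near those of all features. Of 9 tested G1 genes, 1 was called lower and 2 higher, with a median of 0.04. Whether the lists differ from each other was not tested.

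**Figure D1:**
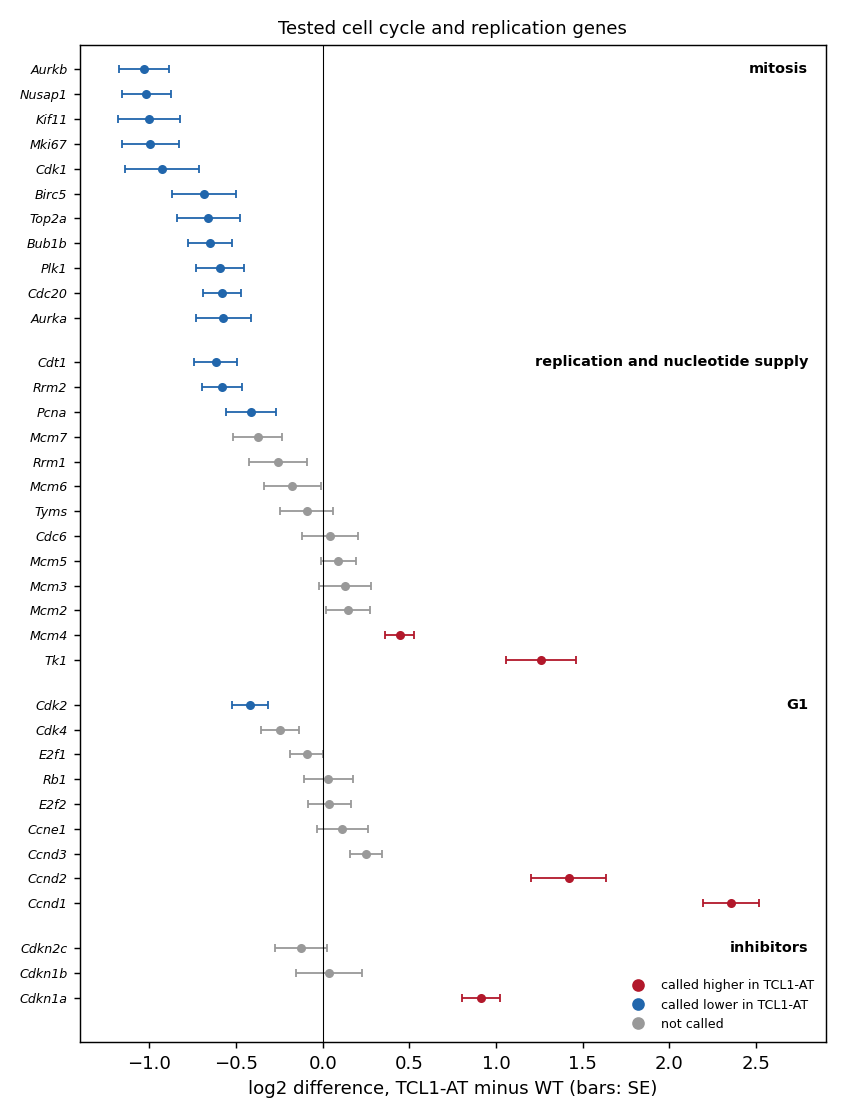
Log2 difference, TCL1-AT minus WT, of each of the 36 tested genes on the horizontal axis, with its SE as a bar, grouped by role and coloured by the call at an adjusted p under 0.05. All 11 mitosis genes lie below 0, between -1.03 and -0.57, whereas the replication genes lie on both sides of 0 and Ccnd1 lies farthest to the right at 2.35.

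Aurkb, the kinase of the chromosomal passenger complex that corrects wrong attachments of chromosomes to the spindle, had the lowest p of the mitosis genes. Its log2 signal was 6.04, 5.87, 6.07, 5.85 and 5.47 on TCL1-AT arrays 1 to 5, and 6.86, 6.52, 7.19, 7.02 and 6.87 on WT arrays 1 to 5. Every TCL1-AT value lay below every WT value. The difference was -1.03 ± 0.14 (SE), a signal 2.05-fold lower, with a limma adjusted p of 0.00015.

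Nusap1 encodes a protein that bundles spindle microtubules around chromosomes. Its log2 signal was 6.00, 5.69, 6.00, 5.93 and 5.86 in TCL1-AT and 6.79, 6.84, 7.06, 7.36 and 6.51 in WT. The groups did not overlap, with WT 5 as the lowest WT array. Its signal was 2.02-fold lower, with a difference of -1.02 ± 0.14 (SE) and a limma adjusted p of 0.000157.

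Mki67 encodes Ki-67, the nuclear protein used in histology as a mark of cycling cells, which coats mitotic chromosomes. Its log2 signal was 6.58, 6.52, 6.48, 6.07 and 6.32 in TCL1-AT and 7.20, 7.07, 7.65, 7.87 and 7.13 in WT. WT 3 and WT 4 were the highest arrays, and the groups did not overlap. The difference was -0.99 ± 0.16 (SE), or 1.99-fold lower (limma adjusted p = 0.000536).

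Kif11, the kinesin motor that pushes the spindle poles apart, was at 5.04, 4.89, 5.10, 4.47 and 4.34 in TCL1-AT and at 5.41, 5.57, 5.85, 6.23 and 5.81 in WT on the log2 scale. TCL1-AT 4 and TCL1-AT 5 were the lowest arrays, and no TCL1-AT value reached a WT value. Kif11 differed by -1.0 ± 0.18 (SE), 2.00-fold lower, with a limma adjusted p of 0.00101.

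Cdc20 activates the anaphase-promoting complex, the ubiquitin ligase that starts the separation of chromosomes, and Bub1b is part of the spindle checkpoint that holds Cdc20 back. Cdc20 was at 6.47, 6.39, 6.51, 6.63 and 6.56 in TCL1-AT and at 7.02, 6.95, 7.41, 7.19 and 6.90 in WT. Bub1b was at 7.19, 7.09, 7.00, 6.98 and 6.82 in TCL1-AT and at 7.62, 7.58, 7.72, 8.06 and 7.36 in WT. Neither gene had overlapping groups. The log2 difference was -0.58 ± 0.11 (SE) for Cdc20, 1.50-fold lower with a limma adjusted p of 0.00161, and -0.65 ± 0.13 (SE) for Bub1b, 1.57-fold lower with a limma adjusted p of 0.002.

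**Figure D2:**
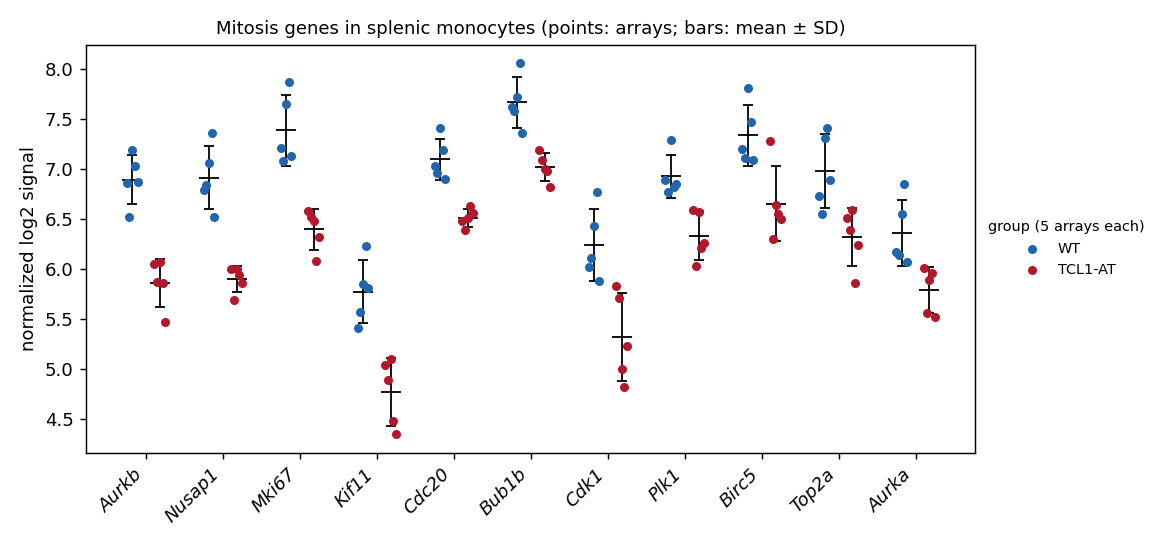
Log2 signal of each of the 11 tested mitosis genes on the vertical axis, with 1 point for each array, 5 in WT (blue) and 5 in TCL1-AT (red), and bars at the mean ± SD of each group. The groups are apart for 9 genes, and overlap for Birc5, where TCL1-AT 1 reaches 7.28, and for Top2a.

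The other mitosis genes were also called lower by limma. Cdk1, the kinase that drives entry into mitosis, differed by -0.93 (adjusted p = 0.00572), and Plk1, a kinase of centrosomes and kinetochores, by -0.59 (adjusted p = 0.00583). Aurka, the centrosomal Aurora kinase, differed by -0.57 (adjusted p = 0.0173). Birc5, survivin of the passenger complex, differed by -0.68 (adjusted p = 0.0143), and Top2a, the topoisomerase that untangles chromosomes, by -0.66 (adjusted p = 0.0154). In these last 2 genes the groups overlapped, through TCL1-AT 1 at 7.28 against a lowest WT value of 7.09 for Birc5, and through TCL1-AT 3 at 6.59 against 6.55 in WT 2 for Top2a.

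Further probes that passed the detection filter, dimmer than those used, did not all give a call. Of 3 for Cdc20, 2 were called lower, at -0.61 and -0.43, and 1 was not, at 0.02. Neither of 2 for Birc5, at -0.45 and -0.30, nor the 1 for Bub1b, at -0.22, was called, while the 1 for Top2a was called lower, at -0.37. For Mki67 and Cdk1 only 1 of 3 probes passed the filter, and for Nusap1 1 of 4, so these genes rest on 1 probe each. Aurka, Aurkb, Plk1 and Kif11 had 1 probe each.

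Not tested were 4 mitosis genes. Ccna2, cyclin A2, had a detected signal on 0 TCL1-AT arrays and 1 WT array, WT 4, at 4.53. Ccnb2, cyclin B2, and Bub1, a checkpoint kinase, had none on any array, and Ccnb1, cyclin B1, was not analysed here because the annotation used names no probe for it.

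Within each group, the same few arrays were high for most mitosis genes. Among the 11 genes, WT 4 had the highest WT value in 7 and WT 3 in 4, and WT 5 the lowest in 6. In TCL1-AT, array 1 had the highest value in 7 genes and array 3 in 3. The mean over the 11 genes was 6.32, 6.04, 6.17, 5.94 and 5.92 in TCL1-AT and 6.72, 6.65, 7.12, 7.19 and 6.67 in WT, with no overlap.

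Promoters of mitotic genes are known for the CHR element (cell cycle genes homology region), bound by the MuvB complex, which often lies near the start site with CCAAT boxes, bound by NF-Y, upstream of it, whereas E2F sites mark many replication genes. The RefSeq sequences of the 250 bases before the annotated start (build GRCm38.p6) were searched on both strands for the CHR (TTTGAA or TTCGAA), the CCAAT box (CCAAT) and the E2F site (TTTGGCGC or TTTCCCGC or TTTGCCGC or TTTCGCGC). In the promoters of tested genes no motif of one kind overlapped one of another. A promoter was held for 10 of the 11 tested mitosis genes, all but Aurkb. Of these 10, 6 had a CHR, 8 a CCAAT box, 6 both and 1 an E2F site, against 17.1%, 33.9%, 6.02% and 1.86% of all 32841 promoters. Among 30 promoters of the further mitosis genes described later, 9 had a CHR (30%), 19 a CCAAT box (63.3%) and 16.7% both. Of the 13 promoters of 12 tested replication genes, 2 had a CHR, 9 a CCAAT box and 4 an E2F site. A match is a description of the letters and not a site shown to be used.

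The 150 bases before the start, 5′ to 3′ in the direction of the gene with CHR, CCAAT and E2F letters in capitals, are shown for 5 mitosis genes that were called lower and carry a CHR in this stretch, for Nusap1, which was called lower and has none of the motifs here, and for Tk1, the replication gene called higher by the most. They lie at chr7:135716380-135716529 on the minus strand for Mki67, chr10:69352913-69353062 minus for Cdk1, chr11:99024190-99024339 minus for Top2a, chr4:118437344-118437493 minus for Cdc20, chr19:37376232-37376381 plus for Kif11, chr2:119618148-119618297 plus for Nusap1 and chr11:117826015-117826164 minus for Tk1.
Mki67: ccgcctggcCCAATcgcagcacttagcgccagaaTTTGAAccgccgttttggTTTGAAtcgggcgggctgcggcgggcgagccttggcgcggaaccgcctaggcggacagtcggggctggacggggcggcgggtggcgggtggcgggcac
Cdk1: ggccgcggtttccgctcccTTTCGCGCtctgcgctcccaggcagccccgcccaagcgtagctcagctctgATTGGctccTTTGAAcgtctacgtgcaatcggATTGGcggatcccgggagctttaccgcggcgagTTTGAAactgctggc
Top2a: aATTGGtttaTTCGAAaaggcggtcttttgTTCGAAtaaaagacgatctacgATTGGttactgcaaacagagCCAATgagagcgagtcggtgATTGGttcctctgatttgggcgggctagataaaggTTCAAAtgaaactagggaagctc
Cdc20: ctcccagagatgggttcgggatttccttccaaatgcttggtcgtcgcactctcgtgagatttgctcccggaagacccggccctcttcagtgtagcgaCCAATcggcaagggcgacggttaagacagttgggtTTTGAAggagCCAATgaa
Kif11: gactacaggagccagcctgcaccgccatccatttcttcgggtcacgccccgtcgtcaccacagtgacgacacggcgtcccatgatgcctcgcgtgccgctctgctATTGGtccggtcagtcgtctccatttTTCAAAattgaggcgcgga
Nusap1: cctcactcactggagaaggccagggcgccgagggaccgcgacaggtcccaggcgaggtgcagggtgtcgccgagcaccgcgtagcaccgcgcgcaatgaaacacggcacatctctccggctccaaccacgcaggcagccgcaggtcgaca
Tk1: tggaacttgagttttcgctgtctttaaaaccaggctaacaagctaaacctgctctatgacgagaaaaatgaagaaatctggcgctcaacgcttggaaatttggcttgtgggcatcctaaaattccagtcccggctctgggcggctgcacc
The CHR nearest to the start begins 15 bases before it in Cdk1, 18 in Cdc20, 19 in Kif11 and 23 in Top2a, and 98 in Mki67, and each of these stretches also holds a CCAAT box in 1 of its orientations. The Nusap1 and Tk1 stretches hold none of the 3 motifs, although Nusap1 was lower and Tk1 higher in TCL1-AT.

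The replication genes are licensing factors, the subunits of the Mcm helicase, the clamp of the DNA polymerase and the enzymes that make deoxynucleotides. Tk1, thymidine kinase of the salvage pathway, was higher, at 7.75, 8.01, 7.69, 6.99 and 7.46 in TCL1-AT and at 5.90, 6.05, 6.47, 6.87 and 6.31 in WT on the log2 scale. The groups came close only between TCL1-AT 4 and WT 4. The difference was 1.26 ± 0.20 (SE), 2.40-fold higher, with a limma adjusted p of 0.00048. Its 3 other probes were also called higher, by 0.86, 0.63 and 0.85.

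Mcm4, a subunit of the helicase that unwinds DNA at replication forks, was at 9.86, 9.83, 9.90, 9.94 and 9.83 in TCL1-AT and at 9.40, 9.34, 9.44, 9.57 and 9.39 in WT. The groups did not overlap, and the values within each lay close together. Mcm4 was 1.36-fold higher, by 0.44 ± 0.08 (SE), with a limma adjusted p of 0.00162. Only 1 of its 3 probes passed the detection filter. It was not called with median scaling (limma adjusted p = 0.106) or with the level of raw signal as a block. Of the other helicase subunits none was called by limma: the difference was 0.14 for Mcm2 (adjusted p = 0.426), 0.13 for Mcm3 (0.555), 0.09 for Mcm5 (0.542), -0.18 for Mcm6 (0.455) and -0.38 for Mcm7 (0.0665). For Mcm7, whose second probe differed by 0.24 and was not called, the call turned on 1 array: without WT 1 the difference was -0.50 with a limma adjusted p of 0.00763.

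Cdt1, which loads the helicase onto origins, was lower, at 8.00, 7.88, 8.14, 7.93 and 7.73 in TCL1-AT and at 8.54, 8.65, 8.91, 8.26 and 8.42 in WT. The groups did not overlap. It differed by -0.62 ± 0.13 (SE), 1.54-fold lower (limma adjusted p = 0.00266). Cdc6, which loads the helicase with Cdt1, differed by 0.04 (adjusted p = 0.871) and was not called. Gmnn, geminin, the inhibitor of Cdt1, was not detected on any array and not tested.

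Rrm2, the regulated subunit of ribonucleotide reductase, which makes deoxynucleotides, was at 4.82, 4.89, 5.06, 4.96 and 4.74 in TCL1-AT and at 5.51, 5.18, 5.72, 5.62 and 5.36 in WT. All TCL1-AT values lay below all WT values. Rrm2 was 1.50-fold lower, by -0.58 ± 0.12 (SE), with a limma adjusted p of 0.00224, and its second probe was called lower too, by -0.42. The partner subunit Rrm1 differed by -0.26 (adjusted p = 0.27) and Tyms, thymidylate synthase of the de novo pathway, by -0.09 (adjusted p = 0.696), and neither was called.

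Pcna, the sliding clamp, was at 5.69, 5.28, 5.64, 5.76 and 5.29 in TCL1-AT and at 6.23, 5.98, 5.58, 6.16 and 5.79 in WT. The groups overlapped, through WT 3. Its difference of -0.41 ± 0.15 (SE), 1.33-fold lower, had a limma adjusted p of 0.0489, and it was past the threshold in 7 of 21 alternative settings, with adjusted p from 0.0512 to 0.118 without any 1 of TCL1-AT 1, 2, 3 or 5 or WT 1, 2, 4 or 5.

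Among the 36 genes, the log2 differences of Ccnd1 and Ccnd2 were the largest. Ccnd1, cyclin D1, was at 7.52, 8.16, 8.13, 7.31 and 7.77 in TCL1-AT and at 5.35, 5.17, 5.51, 5.55 and 5.53 in WT. The lowest TCL1-AT array stood well above the highest WT array. The difference was 2.35 ± 0.16 (SE), 5.11-fold higher, with a limma adjusted p of 3.75e-07, and both other probes of Ccnd1 were called higher, by 2.21 and 0.85.

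Ccnd2, cyclin D2, was at 7.98, 7.88, 7.88, 7.25 and 8.29 in TCL1-AT and at 6.16, 6.68, 6.16, 7.11 and 6.08 in WT. The groups did not overlap, with TCL1-AT 4 and WT 4 nearest to each other. Ccnd2 was 2.67-fold higher, by 1.42 ± 0.22 (SE), with a limma adjusted p of 0.000342. Of its 3 other probes, 2 were called higher, at 1.99 and 1.32, and the dimmest, at -0.02, was not. Ccnd3, cyclin D3, differed by 0.25 with an adjusted p of 0.0562 and was not called.

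Cdk2, the kinase that works with cyclins E and A, was at 9.09, 9.15, 9.09, 8.78 and 9.13 in TCL1-AT and at 9.39, 9.58, 9.43, 9.65 and 9.30 in WT. The groups did not overlap, and TCL1-AT 4 stood below the others of its group. Cdk2 differed by -0.42 ± 0.11 (SE), 1.34-fold lower (limma adjusted p = 0.0101). Of its 3 other probes, 1 was called lower, at -0.54, and the others, at -0.16 and -0.08, were not.

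The other G1 genes were not called by limma. Cdk4, the kinase of the D-type cyclins, differed by -0.25 (adjusted p = 0.111), and by -0.31 with an adjusted p of 0.0348 without TCL1-AT 4. E2f1 differed by -0.09 (adjusted p = 0.499) and E2f2 by 0.04 (adjusted p = 0.845), both activating E2F factors, and Ccne1, cyclin E1, which was detected on 4 TCL1-AT and 2 WT arrays, by 0.11 (adjusted p = 0.604). Rb1, the retinoblastoma protein, differed by 0.03 at its brightest probe (adjusted p = 0.889), while its other probe was called higher, by 0.39 (adjusted p = 0.0211). Ccne2, cyclin E2, was not detected on any array, and Cdk6 was detected on 2 WT arrays and 0 TCL1-AT arrays, with WT 4 highest at 4.69; neither was tested.

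**Figure D3:**
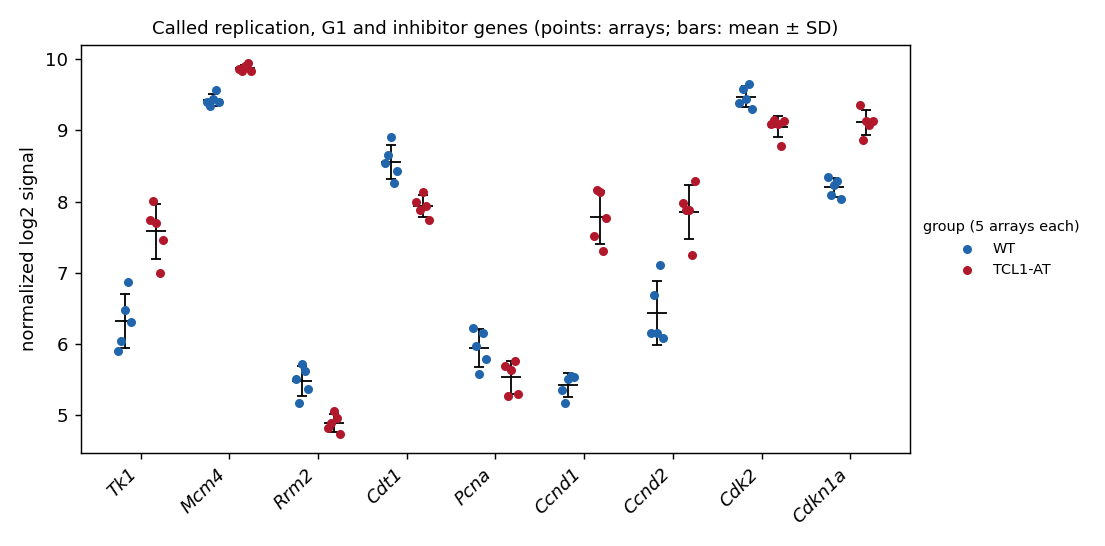
Log2 signal on the vertical axis of the called replication, G1 and inhibitor genes, with 1 point for each array, 5 in WT (blue) and 5 in TCL1-AT (red), and bars at the mean ± SD of each group. Ccnd1 is at 7.31 or above in TCL1-AT and at 5.55 or below in WT, and of the genes shown only Pcna overlaps between the groups.

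All 3 inhibitors were tested, and Cdkn1a was called higher. Cdkn1a encodes p21, which binds cyclin-dependent kinases and stops the cycle after DNA damage and on differentiation. It was at 9.36, 8.86, 9.13, 9.07 and 9.13 in TCL1-AT and at 8.35, 8.09, 8.23, 8.28 and 8.04 in WT. The groups did not overlap. The difference was 0.91 ± 0.11 (SE), 1.88-fold higher, with a limma adjusted p of 4.19e-05, and its 2 other probes were called higher, by 0.73 and 0.93.

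Cdkn1b encodes p27, which holds resting cells in G1. It was at 7.09, 6.66, 6.99, 6.26 and 7.09 in TCL1-AT and at 6.69, 6.67, 7.36, 6.73 and 6.46 in WT. Cdkn2c, p18, blocks Cdk4 and Cdk6, and was at 6.56, 6.35, 6.97, 6.65 and 6.44 in TCL1-AT and at 6.75, 6.32, 7.10, 6.63 and 6.82 in WT. Both overlapped between the groups and neither was called, with differences of 0.04 (limma adjusted p = 0.908) and -0.13 (limma adjusted p = 0.573).

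A wider list of 141 further genes with the same 4 roles, of which 106 were tested, was set beside them. Of 34 tested further mitosis genes, 16 were called lower (47.1%) and 1 higher (2.94%), with a median difference of -0.40. Over all features, 15.4% were called lower and 12.3% higher. The 5 with the lowest p were Anln, anillin of the cleavage furrow, at -1.37 (limma adjusted p = 3.64e-05), Kif2c, a kinesin that corrects attachments, at -1.11 (5.87e-05), Incenp, the scaffold of the passenger complex with Aurkb and Birc5, at -0.72 (0.000146), Cenpa, the histone of centromeres, at -0.89 (0.000369), and Kif18b, a kinesin, at -1.0 (0.000505). The signal of Kif2c was detected on 4 and that of Kif18b on 3 of the 5 TCL1-AT arrays, and the 2 other probes of Kif18b were not called. Anln was 2.59-fold lower, at 5.33 to 6.06 in TCL1-AT and 6.70 to 7.27 in WT. Cks2, a small partner of Cdk1, was the 1 gene called higher, by 0.40 (limma adjusted p = 0.0356). Its signal was dim, with a WT mean of 4.35, and was detected on 4 TCL1-AT and 3 WT arrays. Foxm1, a factor that drives mitotic genes, was not called, at 0.04 (limma adjusted p = 0.869), nor was its second probe, at -0.29 (0.12). Mybl2, which encodes B-Myb, was at -0.30 and was not called either (limma adjusted p = 0.202).

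Of 41 tested further replication genes, 6 were called lower (14.6%) and 4 higher (9.76%), no more than the shares of all features, with a median of 0.01. Pola2, the accessory subunit of DNA polymerase alpha, was at 0.81 (limma adjusted p = 0.000168), Pold1, the catalytic subunit of polymerase delta, at 0.69 (0.0026), and Dut, which removes dUTP, at 0.49 (0.0125), all higher, though a second probe of Dut, at 0.12, was not called. Dctpp1, which breaks down deoxynucleotides, was lower at -0.63 (0.000491), as was Mcm10, a fork protein, at -0.52 (0.0106), though its second probe, at -0.28, was not called, nor was the mean over its probes (adjusted p = 0.0555).

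Of 18 tested further G1 genes, 3 were called lower (16.7%) and 1 higher (5.56%), against 15.4% and 12.3% of all features. The lower genes were Skp2, of the ubiquitin ligase that destroys p27, at -0.69 (limma adjusted p = 0.00267), Ccnh, cyclin H, at -0.42 (0.0132), and Rbbp4, a histone-binding protein of the MuvB complex and others, at -0.44 (0.0152). The 2 other probes of Rbbp4 were not called, the brighter at 0.27, and with the mean over probes Ccnh was at -0.12 and not called (limma adjusted p = 0.336). The 1 gene called higher was Mycl, of the Myc family (limma adjusted p = 0.00291). It was not detected on any WT array, so it is given as a bound, at least 1.67-fold higher. It passed the detection filter through the TCL1-AT arrays alone, so its direction was set by the filter.

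Of 13 tested further inhibitors, 3 were called higher (23.1%) and 2 lower (15.4%), against 12.3% and 15.4% of all features. The groups did not overlap for 5 of the 13, against 20.5% of all features. The 3 were the Gadd45 genes, stress-induced proteins that bind p21 and Pcna and inhibit Cdk1. Gadd45g lay at 9.16 to 9.53 in TCL1-AT and 7.27 to 7.57 in WT, 3.91-fold higher (limma adjusted p = 4.61e-08). Gadd45b was 2.15-fold higher (limma adjusted p = 1.89e-05) and Gadd45a 1.76-fold higher (limma adjusted p = 0.000326), and in all 3 genes the groups did not overlap. Ccng2, the atypical cyclin G2 of resting cells, was 2.50-fold lower, at 6.43 to 6.85 in TCL1-AT and 7.54 to 8.72 in WT (limma adjusted p = 0.000207). Cdkn3, a phosphatase of Cdk2, was lower by -0.70 (limma adjusted p = 0.0103).

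**Figure D4:**
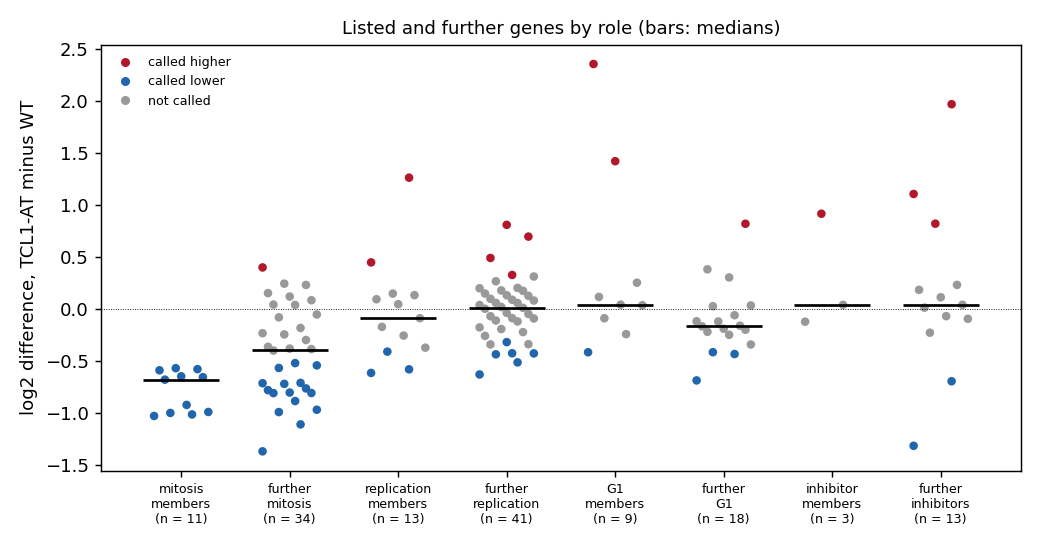
Log2 difference, TCL1-AT minus WT, of the tested genes of each role on the vertical axis. The 36 tested of 43 listed genes and the 106 tested of 141 further genes are set side by side. Each tested gene is 1 point, coloured by its call, with a line at the median. The mitosis genes have medians of -0.68 and -0.40, and the replication genes medians of -0.09 and 0.01.

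Bulk RNA cannot tell fewer dividing cells in the sort from less of these transcripts in each cell. Of 12 monocyte markers, 10 were tested, with a mean log2 signal of 10.03 to 10.27 in TCL1-AT and 10.08 to 10.29 in WT, and 2 called lower and 2 higher. The lower were Adgre1, which encodes F4/80, at -0.91 (limma adjusted p = 0.00115) and Cd68 at -0.31 (0.0351), and the higher were Treml4 at 0.72 (0.000146) and Lyz2 at 0.29 (0.0184). Ccr2 was detected on 2 WT arrays and 0 TCL1-AT arrays. Markers of other cells were compared as well. All 10 markers of immature granulocytes were detected, with 1 called, Chil3, lower by -1.08. Of the 10, 8 had differences below 0 and 2 above 0. Whether their signal came from dividing cells was not tested. Their mean was 10.07, 9.41, 9.49, 9.31 and 9.51 in TCL1-AT and 9.48, 9.66, 10.01, 10.08 and 9.60 in WT, and the groups overlapped. Within each group the arrays highest in this mean, TCL1-AT 1 and WT 3 and 4, were also highest in the mitosis mean. Across groups, TCL1-AT 1 was among the highest 3 arrays for the granulocyte markers and below all WT arrays for the mitosis genes. With this mean as a covariate, which was chosen after seeing the data, 11 mitosis genes were called lower. The part of immature granulocytes in the mitotic difference was not tested. Without WT 3 and WT 4, 7 were called lower, all but Cdk1, Aurka, Birc5 and Top2a, and Cdk2 also lost its call. Markers of T cells, of which 5 of 10 were tested and 3 called lower, had a mean of 6.02 to 6.22 in TCL1-AT and 6.71 to 7.05 in WT, with Cd8a detected on 0 arrays and Cd4 on 1. Their part in the mitotic difference was not tested. The means of other marker lists were higher in TCL1-AT: erythroid markers (6 of 10 tested, 4 called higher) had a mean of 7.03 to 7.66 against 5.48 to 6.47 in WT, B cell markers (5 of 12, 3 higher) 5.73 to 6.38 against 5.45 to 5.68, and basophil and mast cell markers (4 of 7, 3 higher) 5.53 to 7.74 against 4.98 to 5.51. The B cell list was mixed, with Cd22 at -0.21 and Ms4a1 at -0.02 not called. Pax5 was detected on 0 TCL1-AT arrays and 1 WT array, and Fcer2a on 0 and 2. Spib was detected on 5 TCL1-AT arrays and 1 WT array. Cpa3, a basophil and mast cell marker, was detected on 0 WT arrays, so its direction was set by the detection filter. The basophil and mast cell mean was highest on TCL1-AT 1 and 5, at 7.58 and 7.74. TCL1-AT 4, at 5.53, was near WT 3 at 5.51. The means of plasma cell markers (2 of 6 tested) overlapped, at 8.67 to 10.18 in TCL1-AT and 8.36 to 8.74 in WT. Of these 2, Mzb1 was called higher by 1.45 (limma adjusted p = 0.0304), with TCL1-AT 3 highest at 8.09. Xbp1, at -0.20, was not called. Of 8 progenitor markers 4 were tested, with Kit higher by 1.83 (limma adjusted p = 3.15e-06), Cd48 lower by -0.64 (limma adjusted p = 0.0277), Cd34 at -0.05 and Meis1 at 0.01 not called, and a median difference of -0.02. The part of these cells in the higher Tk1, Ccnd1 and Ccnd2 was not tested. The means of neutrophil, NK cell and dendritic cell markers overlapped between the groups, although some members were called. Of 9 tested neutrophil markers 2 were called lower, Csf3r at -0.71 and Mmp8, at least 1.30-fold lower, and of 4 NK cell markers 1 was called higher, Prf1 at 1.48. Mmp8 was detected on 0 TCL1-AT arrays, so it passed the filter through WT alone and its direction was set by the filter. Of 6 dendritic cell markers, Zbtb46 at 1.57 and Bst2 at 0.95 were called higher and Batf3 at -1.33 and Cd209a at -0.91 lower. Ncr1 and Xcr1, defining genes of NK cells and of a dendritic cell type, were detected on 0 arrays.

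**Figure D5:**
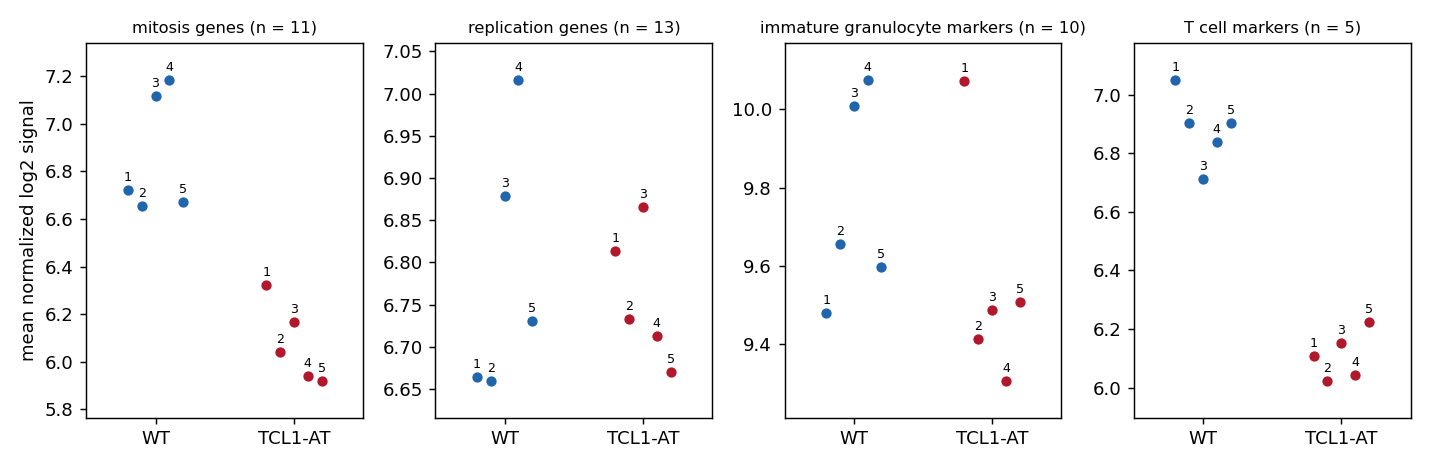
Mean log2 signal on the vertical axis, which does not start at 0, of the tested mitosis genes, replication genes, immature granulocyte markers and T cell markers, with 1 point for each array, numbered by replicate, in WT (blue) and TCL1-AT (red). The mitosis means of the 5 TCL1-AT arrays, 5.92 to 6.32, lie below the WT means, 6.65 to 7.19, whereas the immature granulocyte means of the groups overlap.

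The arrays differed in raw signal along with the groups, so the part of raw signal and that of group cannot be fully told apart. The median raw signal was 90.3 to 93.4 intensity units on the TCL1-AT arrays and 92.1 on WT 1, against 80.4 to 87.8 on WT 2 to 5, and 42.9% to 45.3% of probes were detected on an array. WT 1, the WT array at the level of the TCL1-AT arrays, was above all 5 TCL1-AT arrays for 10 of the 11 mitosis genes, all but Birc5. The median over the mitosis genes of the TCL1-AT mean minus WT 1 was -0.60, and against the other 4 WT arrays it was -0.72. In limma with raw signal as a covariate 4 mitosis genes were called lower, with a median difference of -0.77 against -0.68 without it. With the 2 levels as a block the median was -0.60 and 1 gene was called lower, Aurkb (adjusted p = 0.0365), a comparison that rests on WT 1 alone for WT. With that block Tk1 (adjusted p = 0.0106), Ccnd1 (0.000495), Ccnd2 (0.0197) and Cdkn1a (0.0303) were called higher.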

How the data were processed

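Labelled cRNA made from 150 ng of total RNA was hybridised to 10 Illumina mouse arrays, 5 for each group. Per the file headers, the deposited table pairs, on every array and for 46237 probes, an intensity with a detection p-value. The authors' series matrix holds log2 values. Scale, centring and direction had to be read from the numbers themselves, being not given in the sources used here. The matrix differed from limma's neqc (normexp, offset 16, quantile normalization) of the deposited intensity by at most 0.000428, with a median of 4.30 on every array. Scanner and software: not given in the sources used here. The series matrix was the main input, so the offset compresses differences of dim genes.

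The platform annotation gave 35784 probes 1 symbol and 0 several, and left 10453 unnamed here. By Entrez ID 28620, and by accession 2637, took their current symbol from a RefSeq gene table (GRCm38.p6), and 4527 kept the platform's name. A detection p below 0.05 on 5 or more arrays kept 20241 probes, with the brightest for each gene, giving 11506 genes and 3353 unnamed probes. They were fitted with lmFit and eBayes of limma 3.58.1 in R 4.3.3, with Benjamini-Hochberg adjustment over all 14859 and calls at 0.05. Calls for second probes come from the same fit on all kept probes. The fit was tested on simulated data. A gene not detected in any array of a group is given as a bound, set on each array by the lowest signal detected there or by the gene's own signal if higher.

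All 43 genes are accounted for, with values on every array for the called genes with the lowest p (up to 6 mitosis, 6 replication and 4 G1) and the inhibitors, and up to 5 called genes of each further list. The members and lists were chosen with earlier results of these data known. The number of arrays limits the precision. The 21 alternatives covered normalization, filters, probes, raw signal, the replicate number, marker levels and each array in turn.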

Additional observations from a re-analysis of the deposited data

Results flagged for a closer look

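In 4 of the 72 groups of 5 arrays tested, 1 array stood apart from the other 4 of its group, where chance gives about 1 in 20. For Plk1, WT 3 was at 7.29 against 6.77 to 6.89 on the other WT arrays. For Mcm2, TCL1-AT 3 was at 6.38 against 5.98 to 6.06 in the rest of its group. For Mcm6, WT 4 was at 7.72 and the other WT arrays at 6.96 to 7.02. For Cdk2, TCL1-AT 4 was at 8.78 and the others at 9.09 to 9.15. Without these arrays Plk1 and Cdk2 were still called lower, and Mcm2 and Mcm6 were not called with or without them.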

How the results depend on the processing

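Of the 20 called genes of the list, 0 changed direction in 21 alternatives, 5 were called in all of them (Aurkb, Tk1, Ccnd1, Ccnd2 and Cdkn1a) and 13 in all but those on raw signal. The 11 mitosis genes lay below 0 throughout, with a median of -0.403 without background correction. With median scaling 991 features were called higher, with 1 replication gene higher and 0 G1 genes lower. With raw signal as a covariate 1048 features were called lower and 766 higher, among them 4 mitosis genes, 1 replication gene and 0 G1 genes lower. With the raw level as a block 565 were called lower and 452 higher, with 1 mitosis, 0 replication and 0 G1 genes lower, 1 replication gene higher and a replication median of 0.109. Without WT 3 and WT 4, 7 mitosis and 0 G1 genes were lower and the replication median was 0.0459, and with the immature granulocyte mean as a covariate, added after seeing the data, it was 0.0666. The G1 genes called lower were 1 to 2 when each array was left out in turn. The cause of these changes was not tested. Ccnd3 was called higher without background correction, with either other detection filter and without WT 4 (adjusted p = 0.00866 to 0.0481). The replicate numbers did not pair the samples (correlations of same-numbered deviations from -0.174 to 0.201), and with a replicate block 1982 features were called lower and 1506 higher, with no call of the 36 genes changed. Dim genes had differences compressed by the offset, and genes below background gave bounds only.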
